A study of Mus musculus with 82 samples.

Results

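Of the 127695 accessible regions in the consensus set of bone marrow hematopoietic stem cells (HSCs), 21529 (16.9%) lay inside a domain of histone H3 lysine 36 trimethylation (H3K36me3) and carried no other profiled mark. A region was taken when it shared at least 1 bp with a domain and held no peak of H3K27ac, H3K4me3 or H3K27me3. No change in accessibility entered that rule. The regions are themselves peaks of accessibility, though, and each mark had 1 list of peaks for both ages, so that a region with H3K27ac at either age was set aside. What that choice adds to differences between classes was not tested. The cells were HSCs (LSK CD34- Flk2- CD150+) sorted from bone marrow of male C57BL/6J mice. Young HSCs (YHSCs) came from mice of 3 to 4 months and old HSCs (OHSCs) from mice of 24 to 26 months, with no genetic change or treatment in either group. By the paper, the young mice were bought from The Jackson Laboratory and the old mice came from the NIA Aged Rodent Colony. Age and source of the mice therefore cannot be told apart in any comparison below. ATAC-seq, which counts transposase insertions in open chromatin, was read in 4 YHSC and 4 OHSC libraries, and mRNA in 4 YHSC libraries made from pooled mice and 8 OHSC libraries made from individual mice. A single set of H3K36me3 domains stood for the whole series, and the samples behind it were not stated in the sources used here, so these regions are defined by where the mark was found and not by how it changed with age.

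H3K36me3 is laid down along gene bodies behind elongating RNA polymerase II by SETD2, which binds the polymerase's phosphorylated tail. Proteins with PWWP and chromo domains read the mark and bring in DNA methyltransferases and histone deacetylase complexes, and it is known for limiting transcription from starts inside genes and for keeping Polycomb's H3K27me3 away. An accessible site in such a domain that lacks both promoter and enhancer marks is therefore mostly a site within a transcribed gene.

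Their middles lay in introns in 80.5%, in exons in 7.09%, between genes in 10.0% and in promoters in 2.38%, while introns held 47.8% of all consensus regions. They fell in 5822 protein-coding host genes. The host genes had a median mRNA level of 36.4 TPM (transcripts per 1000000, a level corrected for transcript length) in YHSCs, against 0.715 TPM for the other 15980 protein-coding genes. Of the hosts, 96.2% were above 1 TPM, and of the others 46.3%.

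The regions were small and weak members of the accessible genome. Their median width was 333 bp and their median level 1.62 CPM (counts per 1000000 counted reads) over the 8 libraries, against 501 bp and 2.87 CPM for all regions. They lay a median of 14268 bp from the nearest transcript start and held 0.897 CpG per 100 bp, against 11812 bp and 1.18 for all regions. The 48382 domains covered 560 Mb with a median length of 2000 bp. Only 8101 domains (16.7%) held one of the regions, and a single domain held up to 48. Of the regions, 96.6% lay wholly inside the domain. In all, 34464 consensus regions touched a domain, and 37.5% of those were set aside because they carried another mark.

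The DNA of the largest changes is shown first, since the motif results below rest on such sequence. These are the central 200 bases, on the plus strand of GRCm38.p6 (mm10), of 3 of the 4 regions with the largest gains in OHSCs and of 2 of the 3 with the largest losses. Capitals mark a match, on either strand, to one of the searched motifs. The first is in an intron of Mfsd1, which encodes a lysosomal membrane protein (chr3:67601662-67601861), with a GATA match and a Meis match on each strand.
Mfsd1: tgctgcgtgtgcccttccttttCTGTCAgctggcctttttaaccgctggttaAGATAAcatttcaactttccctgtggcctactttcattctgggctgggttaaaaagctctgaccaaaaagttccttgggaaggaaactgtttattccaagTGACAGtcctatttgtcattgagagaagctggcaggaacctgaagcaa
The second is in an intron of Nsun2, an RNA cytosine methyltransferase (chr13:69593465-69593664), with a Meis match and, towards its end, an AP-1 match.
Nsun2: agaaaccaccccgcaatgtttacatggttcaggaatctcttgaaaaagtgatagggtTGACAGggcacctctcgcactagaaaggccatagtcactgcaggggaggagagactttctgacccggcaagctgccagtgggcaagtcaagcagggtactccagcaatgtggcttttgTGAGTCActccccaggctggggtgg
The third is in an intron of Mertk, a receptor tyrosine kinase for apoptotic cell clearance (chr2:128738762-128738961). Its AP-1 and ETS matches fall just outside these 200 bases.
Mertk: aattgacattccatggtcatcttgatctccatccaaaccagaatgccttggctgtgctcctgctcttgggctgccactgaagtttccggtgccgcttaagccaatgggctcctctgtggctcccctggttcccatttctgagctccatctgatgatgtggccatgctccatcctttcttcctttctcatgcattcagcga
The largest loss is in an exon within Iscu, the scaffold for iron-sulfur cluster assembly (chr5:113776981-113777180), with a Runx match on the minus strand.
Iscu: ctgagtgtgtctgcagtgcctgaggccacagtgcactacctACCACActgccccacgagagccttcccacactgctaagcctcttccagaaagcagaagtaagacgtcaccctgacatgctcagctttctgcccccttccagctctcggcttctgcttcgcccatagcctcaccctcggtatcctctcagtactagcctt
Another large loss is in an exon within Cabin1, a calcineurin inhibitor (chr10:75684277-75684476), and its Runx match falls outside the 200 bases.
Cabin1: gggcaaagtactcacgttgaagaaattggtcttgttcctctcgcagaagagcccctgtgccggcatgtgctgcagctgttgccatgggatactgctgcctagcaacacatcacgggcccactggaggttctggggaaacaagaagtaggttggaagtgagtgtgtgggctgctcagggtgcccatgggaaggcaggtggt

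The 8 ATAC-seq libraries held 15427933 to 26260337 reads in consensus regions and the 12 mRNA libraries 20475764 to 24654742 reads on genes. YHSC library 2 was the shallowest ATAC-seq library and stood apart from the other YHSC libraries on the second principal component (-67.6 against 21.4 to 27.6). Among sorted-cell markers in mRNA, the summed level of 9 HSC markers was 4167 to 4205 CPM in YHSCs and 3869 to 4363 CPM in OHSCs, with 1 past the test as higher. The 5 B cell markers summed to 73.5 to 128 CPM in YHSCs and 33.0 to 40.2 CPM in OHSCs and all 5 passed the test as lower, while the 4 megakaryocyte markers summed to 161 to 189 CPM in YHSCs and 282 to 358 CPM in OHSCs, with 2 past the test as higher. No marker in any list was without reads. Sums for T cell markers were 3.27 to 3.73 against 1.24 to 5.50 CPM, for neutrophil and myeloid markers 3.89 to 124 against 3.49 to 48.4 CPM, and for erythroid markers 30.4 to 39.1 against 19.3 to 72.7 CPM. No T cell marker passed the test, 1 neutrophil and myeloid marker was lower, and of the erythroid markers 1 was higher and 2 were lower. Their part in the results below was not tested.

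The H3K36me3-only regions took a slightly larger share of the reads in OHSCs. The share of counted reads in these regions was 5.94%, 5.78%, 5.93% and 5.80% in the 4 YHSC libraries. It was 6.06%, 6.20%, 6.29% and 6.10% in the 4 OHSC libraries. Every OHSC library lay above every YHSC library. The means were 5.86% ± 0.0807 (SD, n = 4) and 6.16% ± 0.102 (n = 4), a difference of 0.299 percentage points (2-sided exact permutation p = 0.0286, the smallest that 4 against 4 libraries can give, and 0.0286 after Benjamini-Hochberg adjustment over the 5 classes of regions).

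In percentage points the rise was the smallest of the 4 classes outside H3K4me3. Regions with H3K4me3, of which 30.1% lay in promoters, fell from 65.7% ± 0.611 to 62.2% ± 0.276 of reads, and regions with H3K27ac alone or beside other marks but not H3K4me3 rose from 7.43% ± 0.131 to 8.47% ± 0.0820. Regions with H3K27me3 rose from 4.82% ± 0.122 to 5.33% ± 0.0832, and regions without a profiled mark from 16.2% ± 0.731 to 17.8% ± 0.248 (all with the same exact permutation p). Shares sum to the whole library, so a fall in 1 class raises the others.

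**Figure D1:**
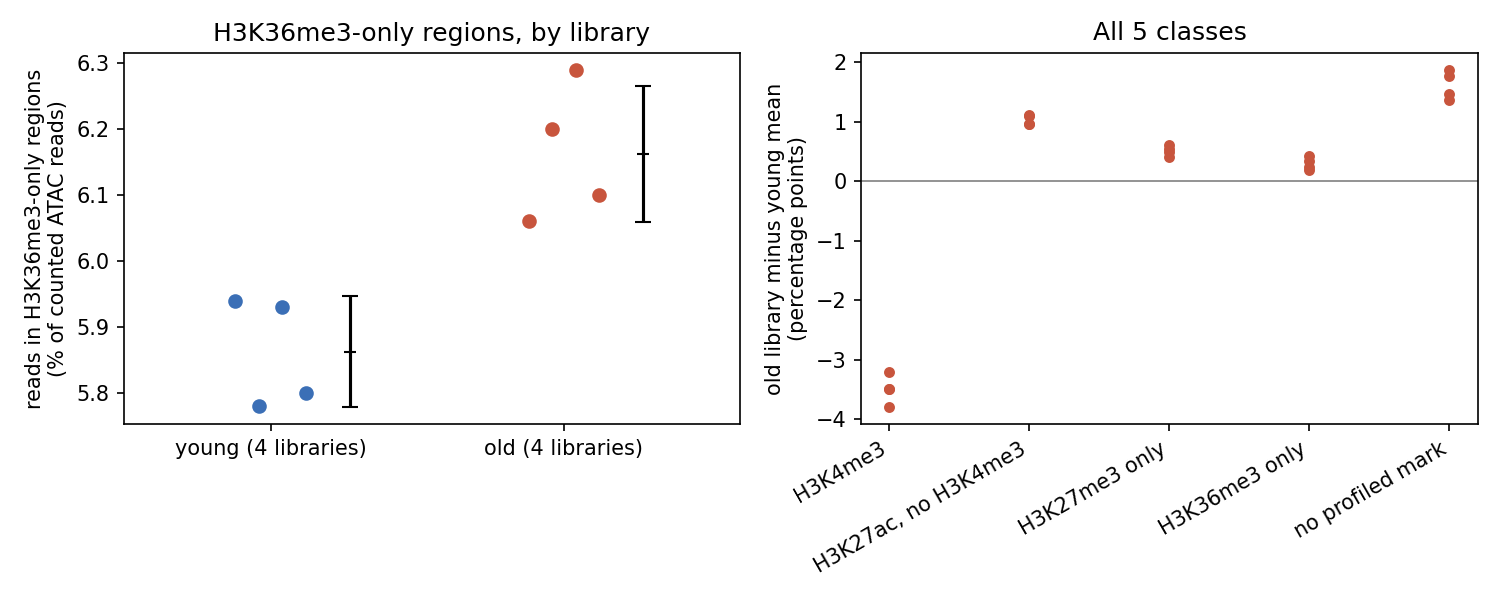
Share of counted ATAC-seq reads by class of region. Left, the percentage of reads in H3K36me3-only regions in each of 4 YHSC (blue) and 4 OHSC (red) libraries, with the mean and SD in black; the axis does not start at 0, and the OHSC libraries (6.06% to 6.29%) lie above the YHSC libraries (5.78% to 5.94%). Right, each OHSC library minus the YHSC mean, in percentage points, for all 5 classes, from a fall of 3.47 on average for H3K4me3 to rises for the other 4.

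The mean level per region was compared with the classes with H3K27ac and without a mark. On the log2(CPM + 0.5) scale the H3K36me3-only regions had a mean of 1.21 in YHSCs and 1.28 in OHSCs. Regions without a profiled mark started level with them, at 1.23, and reached 1.40 in OHSCs. The gap between the classes was -0.02, -0.02, -0.01 and -0.02 in the YHSC libraries. It was -0.12, -0.14, -0.10 and -0.11 in the OHSC libraries, so the groups did not overlap. The difference of -0.10 between the ages had a 2-sided exact permutation p of 0.0286 (n = 4 and 4), and its size moved with the pseudocount, from -0.14 at 0.1 to -0.06 at 2. Against regions with H3K27ac the gap went from -0.97 ± 0.0220 to -1.08 ± 0.0136, a difference of -0.11 with the same exact permutation p. The regions inside H3K36me3 domains thus rose by 0.07 on this scale, less than regions with H3K27ac (0.19) or with no mark (0.17).

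Of the 21529 regions, 11709 (54.4%) passed the filter on low counts and were tested one by one, and 9820 were not. The untested regions had a median level of 0.858 CPM and a median width of 227 bp. In OHSCs 1178 regions were more accessible, which is 10.1% of those tested and equal to the 10.1% of all regions tested (fold change above 1.5, edgeR adjusted p below 0.01). Another 462 (3.95%) were less accessible, against 2.90% of all regions tested. The 4 YHSC and 4 OHSC libraries did not overlap in 1094 of the gained and 400 of the lost regions. Such separation largely follows from the call itself, so these counts are a description. They were not set beside a count over all regions. The median log2 fold change over the tested regions was 0.02, and over all regions -0.01. Counts by other classes ran from 2.77% gained and 2.26% lost with H3K4me3 to 17.3% and 3.36% with H3K27ac. Where no mark was found, 16.1% were gained and 2.87% lost.

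The 10 largest gains and 10 largest losses were chosen for their size and for libraries that do not overlap between the ages, so their separation is a description. All but the Pacs2 region exceeded the filter's 1.5 CPM in libraries of 1 age only, and so were tested through the age in which they were high. At the Mfsd1 intron (chr3:67601384-67602139, 0.885 of the way along the gene) the level was 0.831, 0.778, 0.845 and 0.685 CPM in YHSCs. In OHSCs it was 15.8, 16.7, 15.4 and 17.5 CPM. The site was near the floor of the assay in YHSCs, with 12 to 22 reads a library, and held 316 to 447 reads in OHSCs. Its log2 fold change was 4.36 (SE 0.150, edgeR adjusted p = 1.46e-30). The other tested region in Mfsd1 had a log2 fold change of 0.17.

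Nsun2 held the third largest gain (chr13:69593339-69593791). Its YHSC levels were 0.633, 0.194, 0.691 and 0.647 CPM. Its OHSC levels were 4.39, 9.22, 7.87 and 5.67 CPM. The OHSC libraries varied by over 4 CPM (mean 6.79 ± 2.17), and the log2 fold change was 3.55 (SE 0.240, edgeR adjusted p = 5.06e-16). Both tested Nsun2 regions gained, the other by 1.97. This site lies within 1000 bp of a peak of another mark.

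At Mertk (chr2:128738539-128739184) the YHSC libraries had 0.237, 0.778, 0.384 and 0.305 CPM and the OHSC libraries 3.94, 4.32, 4.57 and 5.75 CPM. The log2 fold change was 3.54 (SE 0.259, edgeR adjusted p = 8.63e-17). The domain starts at position 128739001, inside the region, so that more than 0.5 of this region lies outside it, and a rule asking for that share inside would drop it.

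The remaining gains among the 10 largest spanned a log2 fold change of 3.00 to 3.80. They lay in introns of Kctd1, a BTB-domain repressor of AP-2 factors (3.80, from 0.177 ± 0.0442 to 2.62 ± 0.510 CPM), Thada (3.49), Tbc1d9 of the Rab GTPase-activating family (3.12), the lincRNA 8030442B05Rik (3.05) and Phka1, the muscle regulatory subunit of phosphorylase kinase (3.00). One was in an exon within the gene of the cell cycle factor E2f3 (3.32, from 0.596 ± 0.218 to 6.00 ± 1.28 CPM), near the end of the gene, and 1 was between genes on chromosome 3 (3.05). In all of them the YHSC libraries stayed below 1 CPM. With 2 to 24 reads per YHSC library at these 7 regions, each fold rests on few reads.

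Of the 10 largest losses 5 were in exons and 4 in introns, and of the 10 largest gains 1 was in an exon and 8 were in introns. An exon here is one of any annotated transcript at that place, and need not belong to the host gene. The Iscu exon (chr5:113776938-113777223) had 3.09, 3.89, 3.49 and 3.47 CPM in YHSCs. In OHSCs it had 0.200, 0.0386, 0.596 and 0 CPM, which is 4, 1, 15 and 0 reads. The site was nearly closed in OHSCs (log2 fold change -4.05, SE 0.395, edgeR adjusted p = 1.48e-09), with the size of the fold resting on few reads: without OHSC library 7 the log2 fold change was -5.52.

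At an exon within Chd7, a chromatin remodeller, the 4 YHSC libraries had 1.94, 1.56, 1.77 and 1.52 CPM. The OHSC libraries had 0.250, 0.0772, 0.0795 and 0.117 CPM, or 2 to 5 reads, a log2 fold change of -3.73 (SE 0.386, edgeR adjusted p = 1.35e-11). Another region of the same gene, in an intron, went the other way, from 2.70 ± 0.489 to 5.11 ± 0.463 CPM (log2 fold change 0.91, adjusted p = 1.41e-05).

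The Cabin1 exon (chr10:75684101-75684652) had 4.43, 4.02, 5.18 and 5.10 CPM in YHSCs and 0.349, 0.386, 0.517 and 0.313 CPM in OHSCs. Its libraries were tight within each age (log2 fold change -3.58, SE 0.242, edgeR adjusted p = 3.42e-18). Other losses were at the last part of Atg14, an autophagy kinase complex subunit, in the promoter of a neighbouring gene (-2.80), and in the calcium release channel gene Itpr1 (-2.68), Rrm1 for the large subunit of ribonucleotide reductase (-2.47), Slc10a7 (-2.44), the focal adhesion gene Pxn (-2.31) and Pacs2 (-2.29). Pacs2 had the most reads of these, from 6.51 ± 1.63 to 1.37 ± 0.395 CPM.

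**Figure D2:**
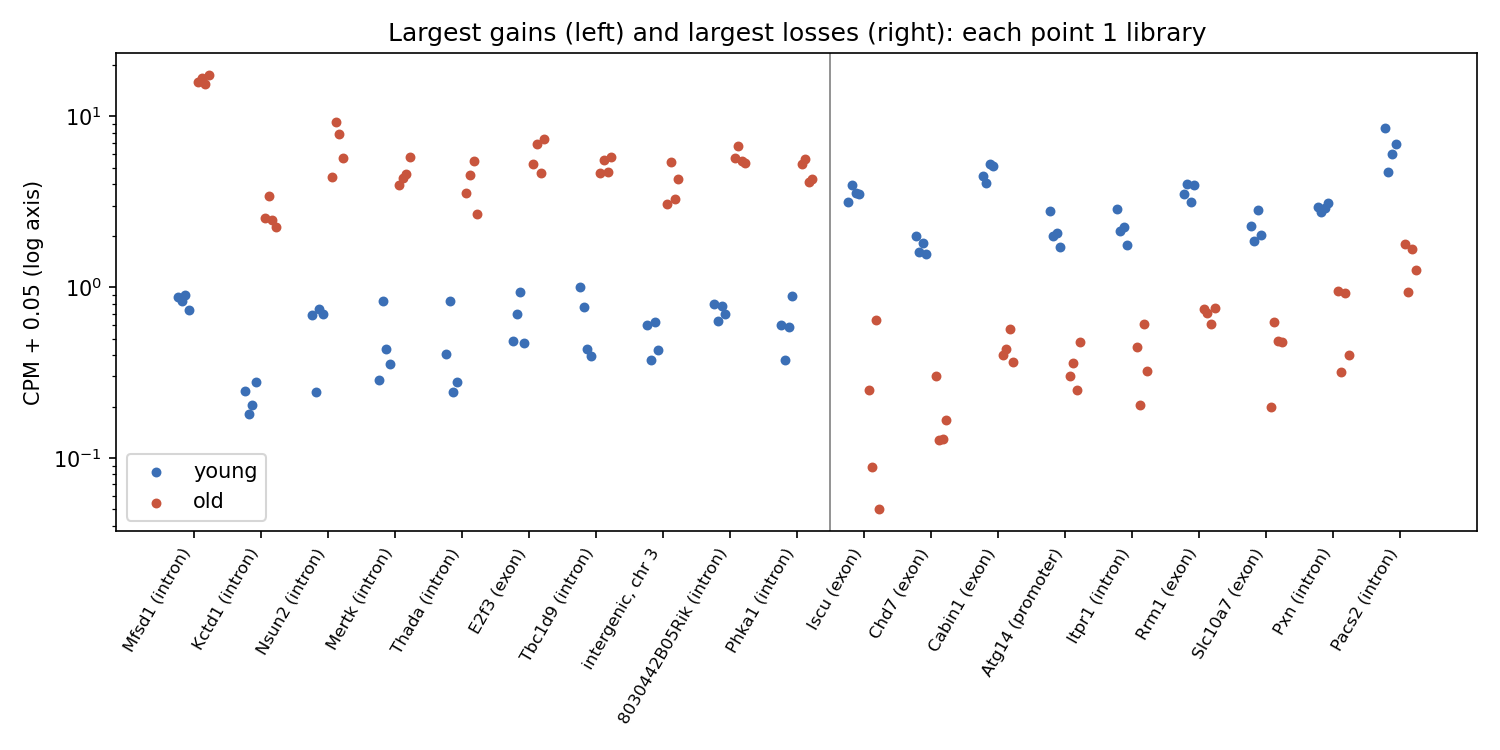
Levels of the 10 largest gains and of the 10 largest losses, less 1 not reported, among H3K36me3-only regions. Each point is 1 ATAC-seq library, YHSC in blue and OHSC in red, on a log axis of CPM + 0.05, with regions named by host gene and place; YHSC and OHSC points do not overlap in any region shown, as the choice of these regions required, and the Mfsd1 intron goes from 0.785 to 16.3 CPM on average.

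The most accessible regions of the set did not pass the test. An intergenic region of chromosome 19 (chr19:61266336-61267238) had 367 ± 15.9 CPM in YHSCs and 312 ± 39.5 in OHSCs (log2 fold change -0.25, edgeR adjusted p = 0.111). A pair of regions in Gm21738 had 156 ± 9.80 and 126 ± 8.50 CPM in YHSCs against 152 ± 8.19 and 116 ± 6.09 CPM in OHSCs (log2 fold changes of -0.06 and -0.13). A region of chromosome Y (122 ± 17.7 against 106 ± 1.54 CPM) and a promoter in C230088H06Rik (99.5 ± 4.94 against 88.6 ± 10.7 CPM) followed. Levels so far above the median of 1.62 CPM stood out, and whether reads map there uniquely was not checked.

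The share of regions that changed differed with where they lay. Between genes 14.4% of the tested regions gained, in introns 9.72%, in exons 9.19% and in promoters 6.58%. Losses were most frequent in exons, at 5.54% of 849. Regions in the shortest domains, of 1 kb or less, gained in 22.8% of 136 cases, and those in domains over 50 kb in 9.29% of 6610. Regions crossing a domain's edge gained in 15.6% and regions wholly inside in 9.80%. In 10 equal parts of the host gene's length gains lay between 8.06% and 11.2%, and losses between 2.75% in the first part and 5.36% in the last. The share gained went from 6.68% within 1 kb of a transcript start to 13.8% beyond 50 kb. These shares are descriptions, with no test between them.

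Base composition moved with the calls. Of regions with at most 40% GC, 12% gained and 1.46% lost, and of those over 55% GC, 5.36% gained and 6.12% lost. When each library's dependence on GC was removed before the fit, the same bins had 6.36% and 5.10%, and 7.08% and 4.51%. With that correction 947 regions gained (8.09% of those tested, against 8.43% of all regions) and 575 lost (4.91%, against 3.26%). The gained part of the called H3K36me3-only regions went from 71.8% to 62.2%. The 20 largest changes kept their calls with the correction.

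Short sequence motifs set gained and lost regions apart. The central 300 bases of each region (or the whole region where shorter) were searched on both strands for 8 motifs. The letters searched were TGANTCA for AP-1 with Batf, TGTGGT for the Runx family, AGATAA for the family of Gata1 and Gata2, CAGGAAG for the ETS family, GAGGAAGT for PU.1, TGACAG for Meis factors and TTNNGCAA for C/EBP factors, and the CTCF motif was searched by its usual core. The ETS and PU.1 letters overlap. AP-1 and Batf are factors of signal-driven transcription, Runx and GATA factors direct blood cell fates, and PU.1 directs myeloid and lymphoid ones.

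The AP-1 letters were in 22.5% of gained, 11.8% of tested but uncalled and 7.58% of lost regions, against 12% of all consensus regions. Runx letters followed the same order, in 45.0%, 31.5% and 24.5%, against 27% of all regions. GATA letters were in 22.2%, 14.8% and 10.8%, against 13.4%. PU.1 letters ran the other way, in 4.41% of gained, 7.87% of uncalled and 14.9% of lost regions, against 7.04% of all. The CTCF motif was in 0.340% of gained regions (4 of 1178), 3.91% of uncalled and 1.73% of lost ones, against 2.27% of all. Of the tested regions with that motif, 0.985% of 406 gained. ETS letters (24.1%, 20.9% and 22.9%, all regions 21.3%), Meis letters (23.1%, 22% and 23.6%, all 19.6%) and C/EBP letters (14.6%, 12% and 12.6%, all 11.7%) differed little between the sets.

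**Figure D3:**
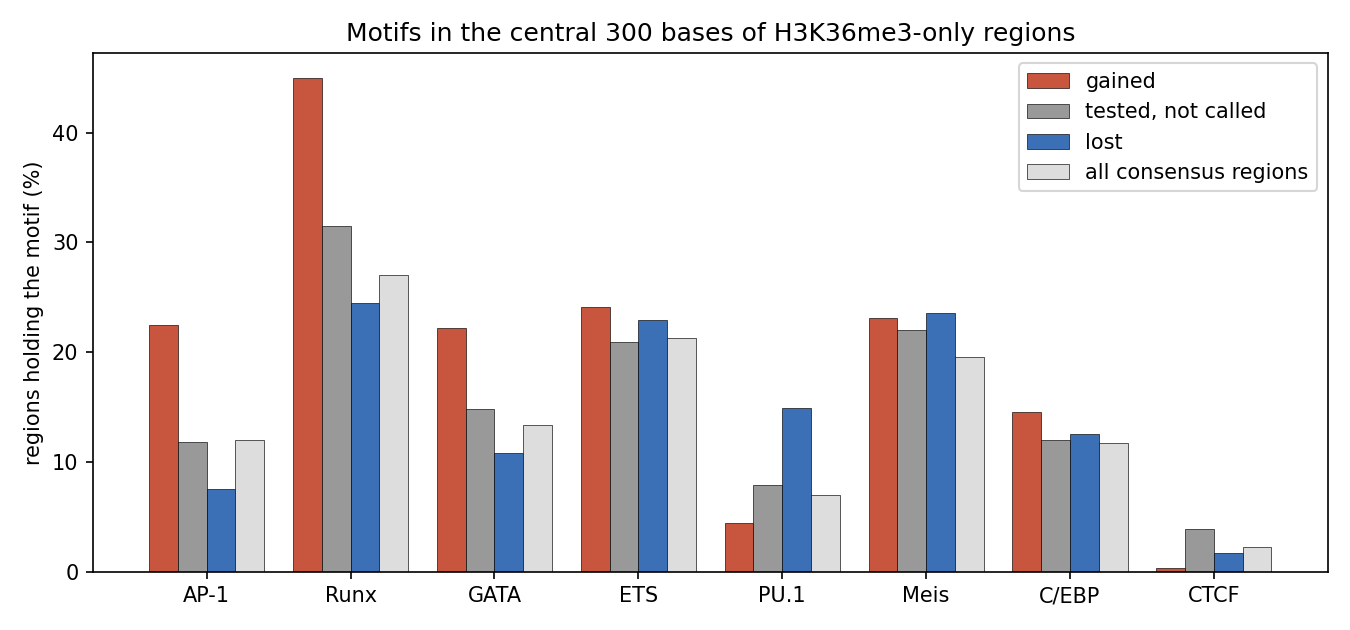
Share of regions whose central 300 bases hold each motif, in percent. Bars are gained (red, n = 1178), tested but not called (grey, n = 10069) and lost (blue, n = 462) H3K36me3-only regions and all 127695 consensus regions (light); AP-1, Runx and GATA bars fall from gained to lost, and PU.1 bars rise.

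Regions with more of these motifs gained more often. Among tested regions holding none of the AP-1, Runx and GATA letters, 6.26% gained and 4.88% lost. With 1 of them 12.5% gained, with 2 of them 18.4%, and with all 3 of them 30.1% of 73, where no region lost. Median log2 fold changes went from -0.03 to 0.07, 0.18 and 0.43. Of the gained regions 1082 of 1178 had at least 300 bases to search, and of the uncalled ones 8298 of 10069. In regions of at least 300 bases alone, AP-1 letters were still in 21.9% of gained, 12.2% of uncalled and 8.00% of lost regions. With the GC correction the shares were 22.9%, 12.1% and 6.96%, and without YHSC library 2 they were 22.4%, 11.9% and 8.06%. The contrast was not a feature of H3K36me3 domains alone: regions without a profiled mark gained in 24.8% with and 14.6% without the AP-1 letters, and H3K36me3-only regions in 17.8% and 8.93%.

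Accessibility also moved by chromosome, a pattern picked out after the values were seen. On chromosome 19 only 10 of 270 tested regions gained (3.70%) and 25 lost (9.26%). On chromosome 11 5.61% gained and 8.60% lost, whereas on chromosome 3 15.2% gained and 1.77% lost. All consensus regions moved alike, with 2.86% gained and 8.23% lost on chromosome 19, 5.01% and 8.46% on chromosome 11, and 14.7% and 1.56% on chromosome 3.

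Read totals showed the same. Of the reads in H3K36me3-only regions, chromosome 19 held 3.16%, 3.19%, 3.16% and 3.19% in YHSCs and 2.74%, 2.53%, 2.64% and 2.59% in OHSCs. The OHSC libraries were all lower, at 0.826 of the YHSC mean, and all consensus regions of the chromosome were at 0.841. Chromosome 11 was at 0.912 (all regions 0.901) and chromosome 3 at 1.09 (1.06). Median GC on chromosome 19 was 47.4% against 44.8% on chromosome 3, and after GC correction chromosome 19 still had 3.33% gained and 13.3% lost. With 1 library left out at a time, chromosome 19 had 4 to 10 gained and 15 to 26 lost regions. Without any 1 of the OHSC libraries 4 to 6 regions gained, and without YHSC library 4 15 lost. On chromosome 11 the 49 losses became 30 without YHSC library 1, and the 32 gains became 21 without OHSC library 6 or without OHSC library 8. On chromosome 3 the 12 losses became 7 without OHSC library 6. The cause was not tested.

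**Figure D4:**
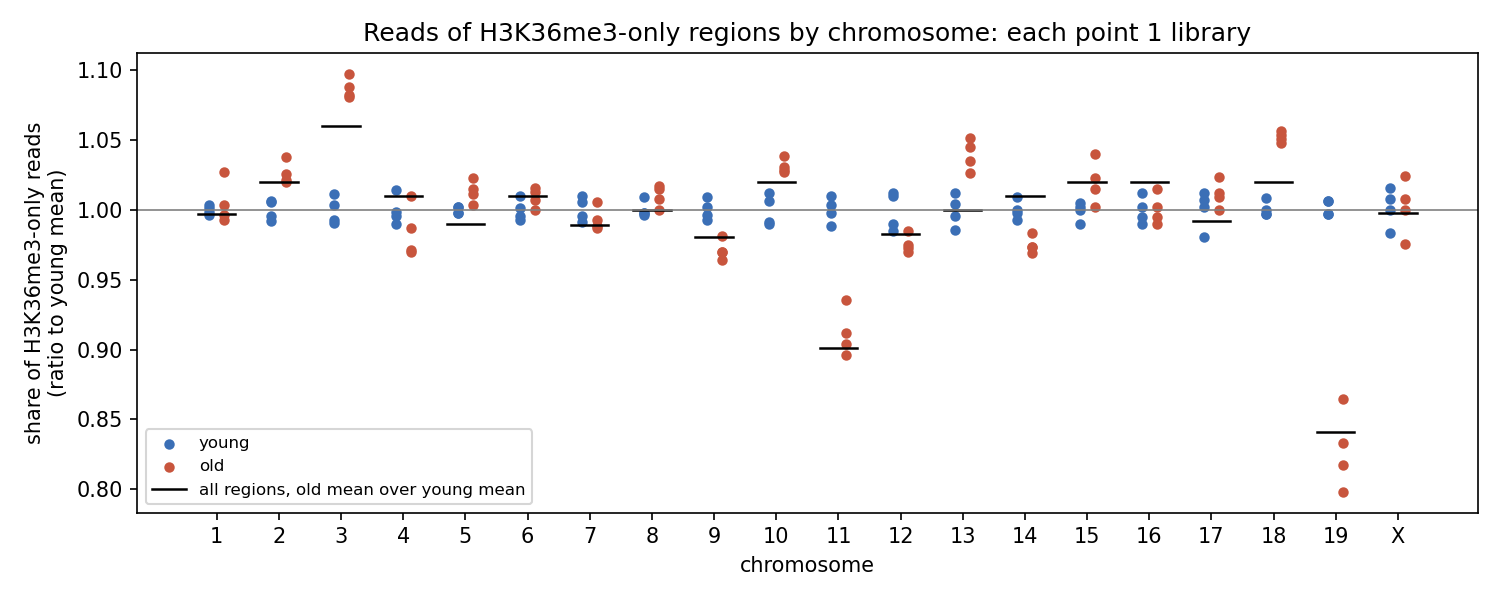
Share of H3K36me3-only reads on each chromosome, as a ratio to the YHSC mean. Points are libraries (YHSC blue, OHSC red) and black bars the ratio of OHSC to YHSC means for all consensus regions; the axis does not start at 0, chromosome Y is left out, and chromosome 19 lies lowest, at 0.826 on average for the H3K36me3-only regions.

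Some host genes carried many changed regions. Of 4315 hosts with a tested region, 739 held a gained and 367 a lost one, 70 held both, and 159 held 2 or more gained. The adhesion receptor gene Adgra3 (chr5:49959956-50059006) led. All 10 of its tested regions, all intronic, had log2 fold changes above 0, from 0.10 to 2.00, and 6 were called gained. The region at 49990631 to 49991577 had the highest OHSC level of them, from 6.60 ± 1.03 to 15.7 ± 1.23 CPM (log2 fold change 1.24, edgeR adjusted p = 4.65e-14).

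Samd12 had 14 of 15 above 0 and 6 gained. Atxn7l1 had 5 gained and 1 lost of 10, and Cdk6, a cell cycle kinase of stem and progenitor cells, 5 gained of 13, up to a log2 fold change of 2.04. These hosts were ranked by the number of gained regions, so the counts describe them and are no test.

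No host held more than 3 lost regions and 9 hosts held 3. Of the first 5 by symbol, Ncapg2, for a condensin II subunit, had all 3 of its tested regions lost (log2 fold changes of -1.18 to -0.86). Arid1b (BAF complex) and Itpr1 each had 3 lost and 3 gained, Asap1 3 lost and 2 gained, and the mediator gene Med12l 3 lost and none gained. Regions of 1 gene share its domain and its transcription, and are not independent of each other.

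**Figure D5:**
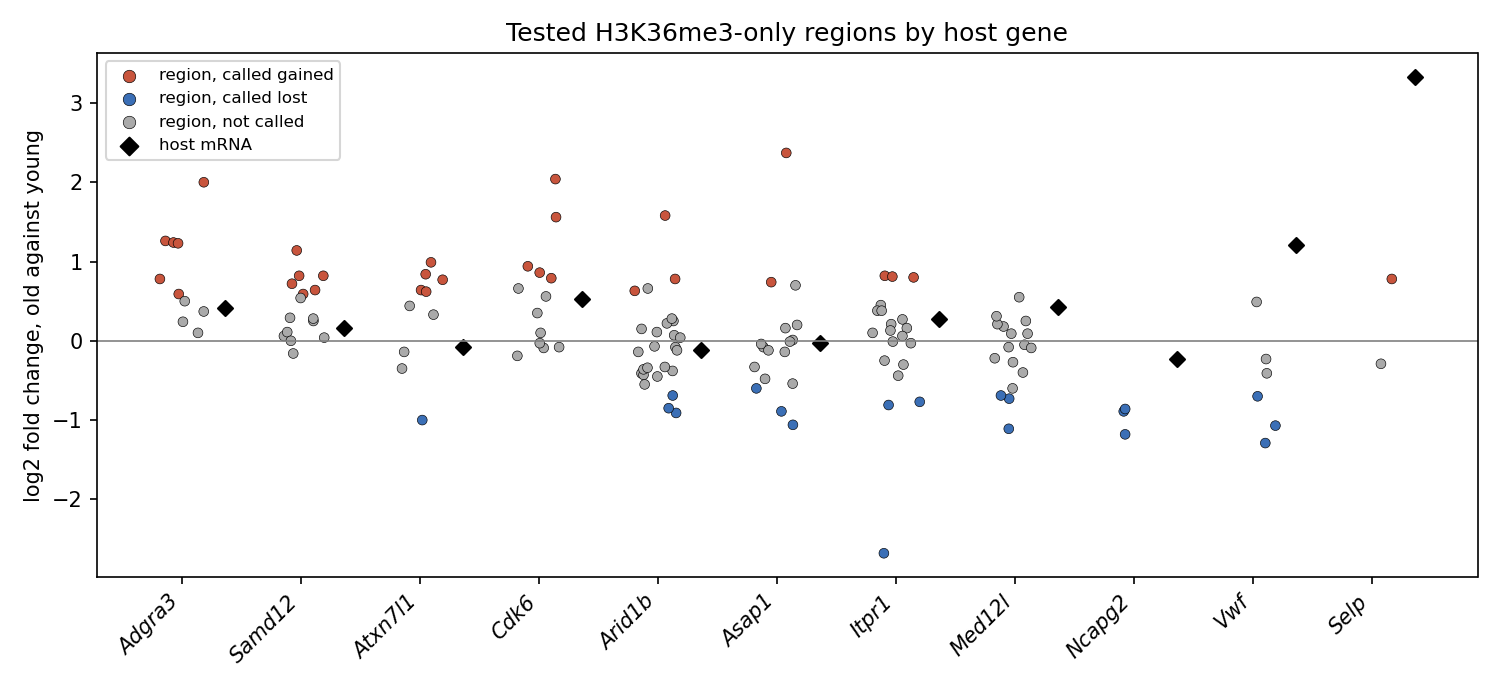
Log2 fold changes (OHSC against YHSC) of every tested H3K36me3-only region in the host genes named on the axis. Circles are regions, red where gained, blue where lost and grey where not called, and the diamond is the mRNA of the gene; all 10 Adgra3 regions lie above 0, all 3 Ncapg2 regions below, and the Vwf diamond lies above its lost regions.

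Genes of stem cell identity held many of the regions. Of the 229 tested regions in 24 of 27 listed genes, 13 gained (5.68%) and 4 lost (1.75%), with a median log2 fold change of 0.00. Over all regions 10.1% gained and 2.90% lost, and the difference was not tested. The gains were 3 in Prdm16, 2 each in Zbtb20 and Ikzf2 and 1 each in Bcl11a, Erg, Fgd5, Kit, Etv6 and Msi2.

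The largest gain of the list was near the start of Bcl11a, a zinc finger repressor (chr11:24087066-24087547). It had 2.85, 2.59, 2.27 and 2.13 CPM in YHSCs and 5.14, 7.29, 6.80 and 7.58 CPM in OHSCs. Every OHSC library was above every YHSC library (log2 fold change 1.44, SE 0.159, edgeR adjusted p = 1.00e-10). Regions named here and for the gene lists below were picked as called ones with the largest changes. Separation of their libraries is thus a description. An intron of the ETS factor Erg went from 1.86 ± 0.668 to 3.96 ± 0.671 CPM (1.04, adjusted p = 3.40e-05), and an intron of Ikzf2 from 1.80 ± 0.370 to 3.40 ± 0.458 CPM (0.93, adjusted p = 2.09e-04).

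Platelet genes gave few regions and opposite cases. Of 35 tested regions in 11 genes, 1 gained (2.86%, against 10.1% of all regions) and 3 lost (8.57%, against 2.90%). The 3 losses were all in Vwf, for the clotting factor that also marks platelet-biased HSCs. The region at chr6:125640494-125640985 had 4.31, 2.98, 2.96 and 3.85 CPM in YHSCs and 2.00, 1.16, 1.47 and 1.29 CPM in OHSCs. The ages did not overlap (log2 fold change -1.29, SE 0.210, edgeR adjusted p = 1.59e-06). The other 2 fell by 1.07 and 0.70, and 1 of the 6 tested Vwf regions was above 0, at 0.49. The region that fell by 1.07 had 0.694 to 1.39 CPM in OHSCs, below the filter's 1.5 CPM. It was tested through the YHSC libraries. Vwf mRNA rose from 337 ± 17.1 to 754 ± 101 CPM (log2 fold change 1.21, adjusted p = 4.35e-06).

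In Selp, for the platelet adhesion receptor P-selectin, a region in an intron (chr1:164119804-164121173) went from 5.74, 5.64, 6.14 and 6.47 CPM to 10.8, 11.9, 9.54 and 9.58 CPM. OHSC libraries were all higher (log2 fold change 0.78, SE 0.116, edgeR adjusted p = 2.57e-07). The other tested Selp region, with more reads, was not called and had a log2 fold change of -0.29 (10.7 to 8.85 CPM, adjusted p = 0.0314). Selp mRNA rose far more, from 52.0 ± 9.48 CPM (n = 4) to 508 ± 22.2 CPM (n = 8), a log2 fold change of 3.33 (adjusted p = 6.37e-12). In bulk RNA, fewer or more cells of a type and less or more RNA per cell cannot be told apart, and megakaryocyte markers moved with these genes as given above.

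The lymphoid list had 1 gain (2.94%) and no loss among 34 tested regions, in Bach2, a repressor of B cell and T cell fate genes (2.12 ± 0.101 to 3.80 ± 0.536 CPM, log2 fold change 0.83, edgeR adjusted p = 2.65e-04). The myeloid list had 6 tested regions and no call. Chromatin regulator genes had 5 gains and 7 losses among 77 (6.49% and 9.09%). Over all regions 10.1% gained and 2.90% lost, and no list was tested against that. Arid1b supplied 3 of each, the largest gain of 1.58 (1.19 ± 0.117 to 3.58 ± 0.264 CPM) lying some way from a loss of 0.91 on the log2 scale (2.68 ± 0.445 to 1.42 ± 0.271 CPM). The region of that gain had 1.03 to 1.31 CPM in YHSCs, below the filter's 1.5 CPM. It was tested through the OHSC libraries. Smarca2, the gene of a BAF complex ATPase, had 2 losses, the larger from 3.28 ± 0.334 to 1.59 ± 0.221 CPM (-1.05, adjusted p = 3.31e-05). A second Arid1b gain of 0.78 was lost in 5 alternatives.

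Host genes as a whole kept the mRNA balance of all genes. Of 5694 tested hosts 270 (4.74%) had higher mRNA in OHSCs, against 4.80% of all genes tested, and 129 (2.27%) had lower mRNA, against 2.77% (fold change above 1.5, edgeR adjusted p below 0.05). The medians were 0.01 and 0.00 on the log2 scale.

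Hosts split by what their regions did were less alike. Among 657 hosts with gained regions only, 60 had higher mRNA (9.13%) and 12 lower mRNA (1.83%). Among 295 hosts with lost regions only, 12 had higher and 12 had lower mRNA (4.07% each). Among 3209 hosts with no called region, 116 were higher (3.61%) and 75 lower (2.34%). Hosts with more tested regions had more chances of a call (medians of 3.00, 2.00 and 1.00 tested regions). Across 10040 pairs of a region and its host, the log2 fold changes had a Pearson r of 0.110 and a Spearman rho of 0.107. That is a description over pairs in which many regions share a host.

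The promoters of these hosts, which are other regions, are given beside the gains as a description. Among 390 hosts with gained regions only and a tested promoter region, 3 promoters gained and 2 lost, with a median log2 fold change of -0.12. Among 182 hosts with lost regions only, no promoter gained and 12 lost (6.59%), with a median of -0.21. Among 2074 hosts with no call, 3 promoters gained and 16 lost (0.771%), with a median of -0.15.

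The mRNA of single hosts, which were picked for their regions, is given as a description. Mfsd1 mRNA went from 124 ± 8.57 CPM (n = 4) to 163 ± 8.93 CPM (n = 8), a log2 fold change of 0.44 (edgeR adjusted p = 4.78e-07) that stayed under the fold threshold. Phka1 mRNA passed it, at 0.60 (18.6 ± 0.840 to 27.2 ± 2.18 CPM), though not in 4 of the alternatives, where it was 0.57 to 0.58. Adgra3 mRNA was higher by 0.41 (70.1 ± 1.27 to 90.1 ± 6.76 CPM, adjusted p = 3.72e-06) and Cdk6 mRNA by 0.53 (114 ± 13.5 to 158 ± 17.5 CPM, adjusted p = 8.55e-04), both below the fold threshold. Med12l, with 3 lost regions, was higher by 0.43 (adjusted p = 8.78e-08).

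Hosts of the 5 exon losses among the 10 largest are given by mRNA. Iscu mRNA went from 77.1 ± 3.62 to 69.8 ± 3.30 CPM (log2 fold change -0.09, edgeR adjusted p = 0.212). Chd7 was higher by 0.31 (adjusted p = 4.04e-04) and Cabin1 lower by 0.12 on the log2 scale (-0.12, adjusted p = 0.0279). Rrm1 was lower (-0.16, adjusted p = 0.0102), and Slc10a7 had 0.02 (adjusted p = 0.903). None of the 5 passed a fold change of 1.5. Ikzf2 mRNA, whose gene held 2 gained regions, was lower (51.6 ± 5.57 to 38.0 ± 4.88 CPM, -0.39, adjusted p = 0.00265).

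Of 27 listed genes linked to H3K36 methylation, not all of which write, remove or read it, none passed a fold change of 1.5 in mRNA. At any fold, 1 was higher (3.70%, against 12.8% of all genes tested) and 8 were lower (29.6%, against 8.28%) at an edgeR adjusted p below 0.05. The list and all genes were not matched for mRNA level, and the difference between these shares was not tested. Without the filter on low counts the 8 became 5. The median of the list was -0.07 on the log2 scale.

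Among writers, Setd2, which makes the trimethyl mark, had 136, 144, 137 and 142 CPM in YHSCs and 115 to 143 CPM with a median of 128 in 8 OHSC libraries. The ages overlapped, and the log2 fold change was -0.07 (adjusted p = 0.283). Nsd2, a dimethyltransferase, was the one gene that rose, from 116 ± 6.58 to 150 ± 8.16 CPM (0.42, adjusted p = 2.70e-07). Nsd1 (-0.07), Nsd3 (0.02) and Ash1l (-0.01) did not pass the test.

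Among demethylases, Kdm4b was lower (-0.19, adjusted p = 0.00865) and Kdm4a was lower (-0.18, adjusted p = 0.00352), the second lost in 2 alternatives. Kdm2a, Kdm2b and Kdm4c did not pass. Among readers both de novo DNA methyltransferase genes fell. Dnmt3b had 113, 111, 105 and 96.2 CPM in YHSCs and 68.4 to 80.4 CPM with a median of 75.3 in OHSCs, with no overlap (-0.46, SE 0.0504, edgeR adjusted p = 2.21e-07). Dnmt3a had 146, 144, 146 and 140 CPM in YHSCs and 101 to 115 CPM with a median of 108 in OHSCs, also without overlap (-0.37, SE 0.0378, adjusted p = 8.93e-08).

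The Polycomb-associated readers Phf19 (10.5 ± 1.02 to 7.33 ± 0.666 CPM, -0.46, edgeR adjusted p = 0.00115) and Phf1 (-0.22, adjusted p = 0.00612) were lower too, while Mtf2 of the same family had 0.00 (adjusted p = 0.971). The readers Psip1 (-0.07), Zmynd11 (0.07), Morf4l1 (0.01), Brpf1 (-0.08), Hdgfl2 (0.06) and Glyr1 (-0.04) did not pass the test. Lower calls for the histone chaperone gene Ssrp1 (-0.13) and the mismatch repair gene Msh6 (-0.12) were lost in 3 and 7 alternatives. Within these 27 genes, 21 held H3K36me3-only regions, and none of the 28 tested regions was called, where 10.1% of all regions gained and 2.90% lost.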

How the data were processed

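The authors sorted HSCs, made ATAC-seq and mRNA-seq libraries, and deposited counts. For ATAC-seq they trimmed reads with cutadapt, used BWA to map them onto mm10, kept each uniquely placed read once outside the blacklist, and deposited raw counts of reads per consensus region. For mRNA they deposited raw counts per gene, from STAR alignments counted with featureCounts. Peaks of H3K4me3 and H3K27ac came from MACS2, and the broad peaks of H3K27me3 and H3K36me3 from chromatin states in bins of 1 kb. Only the positions of peaks and domains were used from those tables. Their signal and fold change columns, which hold the authors' own comparisons, were not used, nor were 8 columns of per-sample values that matched no listed sample (4 of them old ATAC-seq libraries).

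Regions were assigned with bedtools 2.31.1 and Python 3.11.15 (numpy 2.4.6, pandas 2.3.3, matplotlib 3.10.9). Classes were exclusive, in the order H3K4me3, H3K27ac, H3K27me3, H3K36me3 and no mark. Gene places came from GENCODE annotation of the same build, at the middle of the region, with promoters from 1000 bp upstream to 100 bp downstream of a transcript start. Exons of any annotated transcript counted, whether or not they belonged to the host gene. TPM used exon lengths of that annotation. Counts were fitted over all regions or genes with edgeR 4.0.16 in R 4.3.3 (robust quasi-likelihood test, TMM, Benjamini-Hochberg adjustment). Regions needed a CPM above 1.5 in at least 4 libraries, and genes passed filterByExpr. Fold changes are from the TMM-scaled fit and CPM values from unscaled libraries. Standard errors are the absolute log2 fold change over the root of the F statistic. Errors after ± are SD between libraries. Both fits were tested on simulated counts. DESeq2 1.42.0, other normalizations, filters, thresholds, a GC correction (lowess span of 0.3), other rules for membership and leaving out each library were alternatives. No 2 libraries held the same counts within sampling noise (chi-square per degree of freedom of 2.21 to 3.64 for ATAC-seq and 4.42 to 10.7 for mRNA).

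Named regions were the 10 largest gains and 10 largest losses without overlap between the ages, the 5 with the highest CPM, and up to 3 called regions per direction in each gene list. Named genes were their hosts, the 5 hosts with the most gained and the 5 with the most lost regions, and the H3K36 methylation list, and a few of these are not reported here. Sets, lists and rules were chosen with earlier results of these data known. P-values measure the spread between these libraries. Depth limits regions near 1 CPM, at which a library holds about 15 to 26 reads.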

Additional observations from a re-analysis of the deposited data

Results flagged for a closer look

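In 9 of 214 groups of libraries checked, 1 library lay far from the rest of its group by Dixon's test, and chance alone picks out about 1 in 20 such groups. The Nsun2 region had 0.194 CPM in YHSC library 2, against 0.633 to 0.691 in the other YHSC libraries. The intergenic region of chromosome 19 near CR555305.2 had 390 CPM in YHSC library 2, against 355 to 361, and the Gm21738 region at 19415647 had 138 CPM in the same library, against 120 to 122. The Smarca2 region had 1.92 CPM in OHSC library 8, against 1.43 to 1.5. In mRNA, 8030442B05Rik had 0.440 CPM in YHSC library 2 (others 0.0837 to 0.124), Atxn7l1 had 87.9 CPM in YHSC library 3 (93.4 to 93.6) and Msh6 had 167 CPM in YHSC library 4 (182 to 185). Phka1 had 22.3 CPM in OHSC library 8 (26.6 to 28.7) and Nsd1 had 157 CPM in OHSC library 3 (174 to 183).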

How the results depend on the processing

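Over 9 summary results and 143 alternative values, 134 kept their direction and stayed on their side of the threshold or within 1.5 times the count. The count of gained regions, 1178 in the main setting, became 634 when all 8 libraries had to pass 1.5 CPM (8.02% of those tested, against 7.56% of all regions). At a fold change above 2 it became 499 (4.26%, against 4.76%). The count of lost regions, 462 in the main setting, became 759 without a CPM filter (3.53%, against 3.04% of all regions). With the filter in all 8 libraries it became 210 (2.66%, against 2.03%), and at a fold change above 2 it became 148 (1.26%, against 0.648%). Hosts with higher and lower mRNA became 105 and 48 at a fold change above 2. By construction these settings test other regions or ask for a larger change. The 8 lower genes of the H3K36 methylation list became 5 without a filter on low counts, and the cause was not tested. With 1 library left out at a time, the difference in read share ranged from 0.258 to 0.334 percentage points, the gap to regions with H3K27ac from -0.12 to -0.11 and to unmarked regions from -0.11 to -0.10. Gained regions ranged from 798 to 1077 (7.23% to 9.49%, all regions 7.63% to 9.57%) and lost regions from 314 to 529 (2.79% to 4.79%, all regions 2.25% to 3.39%). Hosts ranged from 255 to 272 higher and 117 to 133 lower, and genes of the H3K36 methylation list from 1 to 1 higher and 6 to 8 lower. Of 461 alternative values for named regions 439 kept their call and 22 lost it, 5 of them for Arid1b. A region high at 1 age only drops below the filter, and is not counted, where a library of that age is left out, which holds for all of the 20 largest changes but the Pacs2 region, or where all 8 libraries must pass. Of 1008 for named mRNAs 990 kept it, 16 lost it and 2 gained it, the last for Cdk6 and Kdm2b without 1 YHSC library each. No called value turned its direction, while mRNA values near 0, such as that of Slc10a7 (0.02), changed sign under some alternatives.

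No paired analysis was possible for ATAC-seq because the YHSC and OHSC libraries share no replicate numbers. For mRNA the numbers 1 to 4 are shared, but deviations of same-numbered libraries correlated at 0.037, -0.117, 0.002 and -0.226 and none correlated best with its own number, so they do not pair the samples. With the replicate number as a block, hosts numbered 259 higher and 119 lower, and genes of the H3K36 methylation list 1 higher and 5 lower.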
